A study of Canis lupus familiaris with 15 samples.

Results

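The EGF family ligands and ERBB receptors were followed across all 15 arrays of a study of MDCK cells, the Madin-Darby line of epithelial cells from dog kidney. The genes examined were the receptors EGFR, ERBB2 and ERBB3 and the ligands AREG, EREG, HBEGF, TGFA and BTC. They were found by symbol: every probe set whose platform annotation gave 1 of these 8 symbols alone was taken, which were 11 probe sets of the 29254 with a single symbol. All 8 genes had a probe set, out of 15115 genes named on the array. A probe set was tested if its log2 intensity was at least 4 on at least 3 arrays. That filter kept 8 of the 11 probe sets and 6 of the 8 genes, against 10287 of the 15115 genes. AREG and BTC did not pass it. The series title states that MAPK inhibitors were combined with HGF, and its design text asks which genes the MAPK pathway controls once HGF is given.

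The cells of every group were kept on Transwell filters for 7 days in MEM with 5% serum, and total RNA was extracted from them. Control cells (n = 4) had medium alone. HGF cells (n = 4) had hepatocyte growth factor, the ligand of the receptor MET, at 100 ng/ml for 24 h. HGF + PD cells (n = 4) had that dose of HGF and, at 50 uM, what the labels spell PD09859. HGF + UO cells (n = 3) had it together with UO126, as the labels spell it, at 10 uM. These names were read as PD98059 and U0126, inhibitors of the kinase MEK that activates ERK. The doses of the compounds differed, no group had a compound without HGF, and no label used here describes a vehicle. Replicates are called biological in the sample titles, but whether their cultures were grown apart is not said, so a p-value here reflects array-to-array spread that may be technical.

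ERBB receptors are tyrosine kinases that pair when ligands of the EGF family bind. EGFR binds EGF, TGFA, AREG, EREG, HBEGF and BTC, ERBB3 binds neuregulins and has a weak kinase of its own, and ERBB2 has no known ligand and serves as the partner of the others. The ligands are made as membrane-anchored precursors that proteases release, and in kidney epithelium EGFR signalling is known for roles in growth, migration and repair.

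With HGF, the array signal of EGFR and of the EGFR ligands EREG and HBEGF rose, that of ERBB2 and ERBB3 fell, and that of TGFA did not pass the test. Under either inhibitor, EGFR, EREG and HBEGF were lower than with HGF alone and lay near their Control values, while ERBB2 and ERBB3 were higher than with HGF alone and still below Control. AREG and BTC stayed below the filter level on every array. Of the 6 genes measured, 3 were higher and 2 lower with HGF than in Control in limma at an adjusted p below 0.05, and their median difference was 0.97 on the log2 scale. Over all 10287 genes, 28.0% were called higher and 27.7% lower in that comparison, with a median difference of -0.01. Most measured genes were thus called with HGF, in about equal numbers each way, and the counts below are set against that background.

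**Figure D1:**
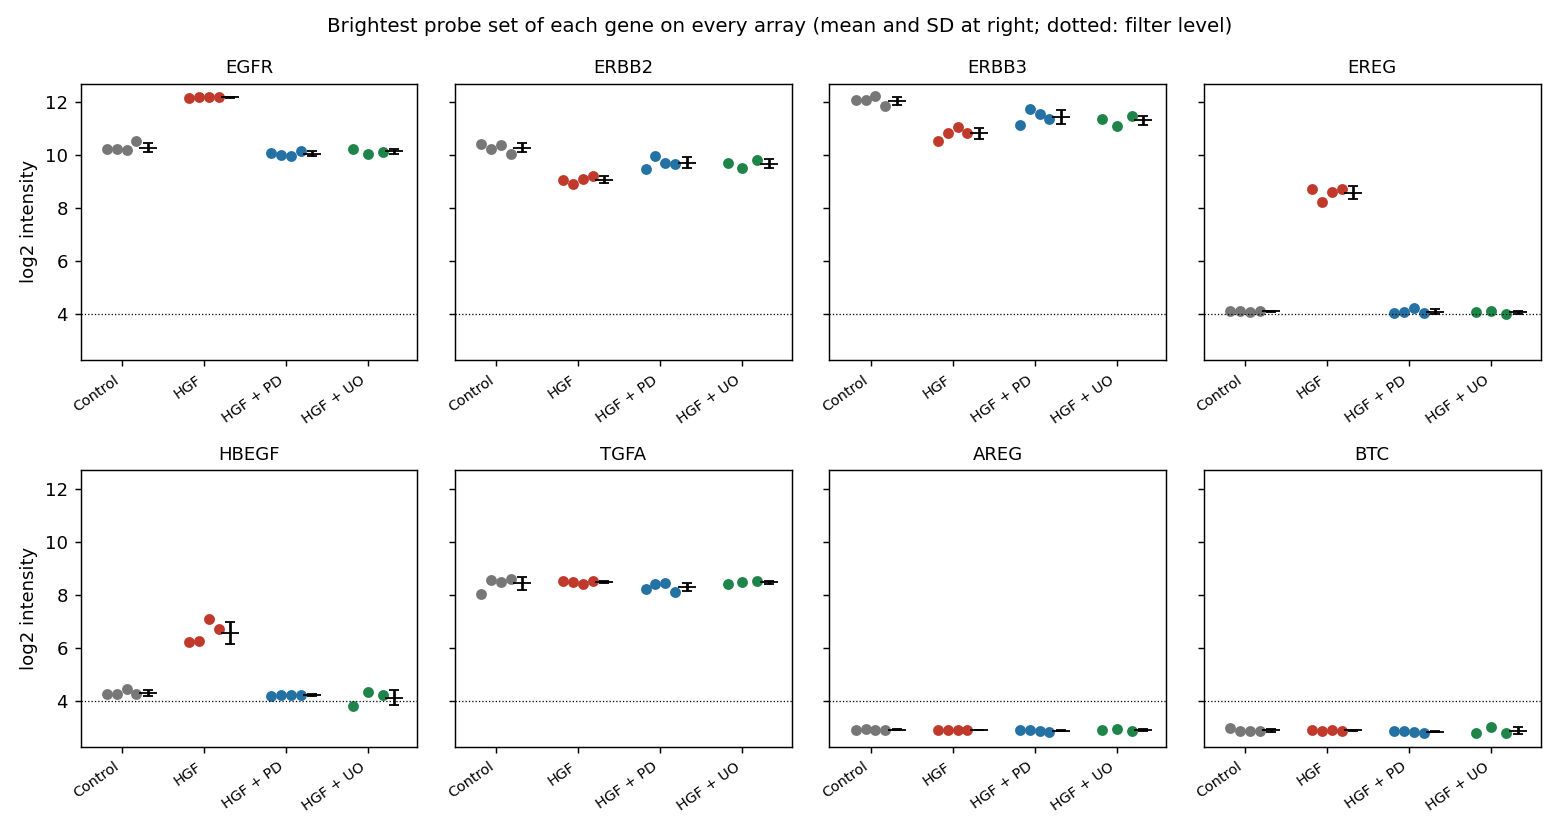
Log2 intensity of the brightest probe set of each gene (vertical axis) on every array of the 4 groups (horizontal axis), with 1 point per array, the group mean and SD as a bar at the right, and the filter level of 4 as a dotted line. EGFR, EREG and HBEGF are highest on the 4 HGF arrays, and outside them EREG and HBEGF, but not EGFR, lie near the dotted line. ERBB2 and ERBB3 are highest on the Control arrays, and AREG and BTC lie below the dotted line throughout. Levels of different genes cannot be set against each other, since each probe set binds its target with its own strength.

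EGFR is the receptor of most ligands of the family. On its brighter probe set (Cfa.8309.1.A1_at), the Control arrays read 10.23, 10.22, 10.19 and 10.54 in log2 intensity. The HGF arrays read 12.15, 12.22, 12.20 and 12.19, all above every other array. The HGF + PD arrays read 10.09, 10.01, 9.98 and 10.17, and the HGF + UO arrays 10.25, 10.05 and 10.14. The 4 HGF arrays spanned a far narrower range than their distance from the rest. The HGF mean exceeded the Control mean by 1.90 ± 0.07 (SE of the fit; 3.72-fold, adjusted p = 3.49e-11 in limma). Against HGF alone, the difference was -2.13 ± 0.07 with PD (adjusted p = 1.09e-11) and -2.05 ± 0.08 with UO (adjusted p = 4.45e-11). The order of the group means was HGF (12.19 ± 0.03, SD, n = 4), Control (10.30 ± 0.16, n = 4), HGF + UO (10.15 ± 0.10, n = 3) and HGF + PD (10.06 ± 0.08, n = 4). Control and HGF + UO did not differ beyond their spread, nor did HGF + UO and HGF + PD.

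The second EGFR probe set (Cfa.3903.1.S1_s_at) was dim. Its Control arrays read 3.96, 3.85, 4.20 and 3.79, and its HGF arrays 5.25, 4.10, 6.56 and 7.02. One HGF array thus lay inside the Control range, although the probe set passed the test (1.78 ± 0.45, adjusted p = 0.00337 in limma). On the inhibitor arrays it read 3.67 to 3.95, below all HGF arrays. Since it passed the filter mainly through the HGF arrays, its call gives no support beyond that of the brighter set.

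**Figure D2:**
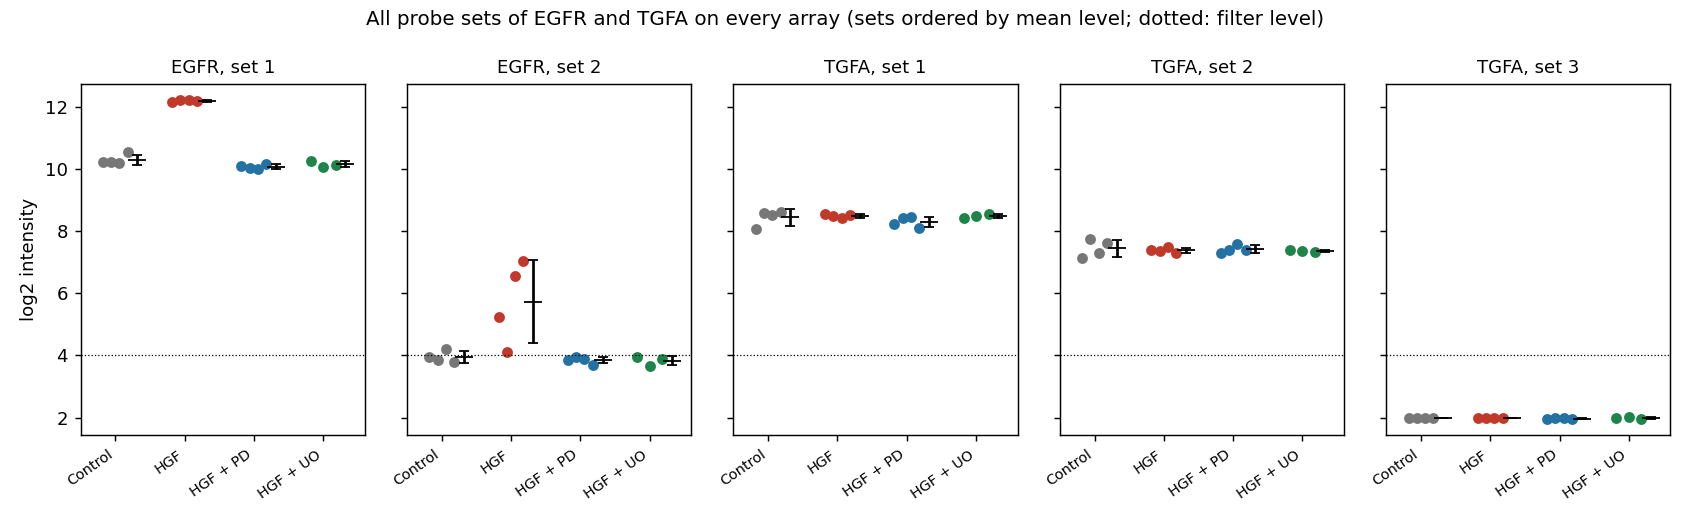
Log2 intensity (vertical axis) of both EGFR and all 3 TGFA probe sets on every array of the 4 groups (horizontal axis), with the group mean and SD as a bar and the filter level of 4 as a dotted line. Both EGFR sets are highest on HGF arrays, with a wide spread on the dim second set (4.10 to 7.02), whereas TGFA sets 1 and 2 overlap between Control and HGF and the third lies near 2 on all arrays.

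ERBB2, the receptor without a known ligand, had 1 probe set (Cfa.3747.1.S1_s_at). The Control arrays read 10.43, 10.26, 10.39 and 10.07 in log2 intensity, and the HGF arrays 9.07, 8.93, 9.12 and 9.22. The HGF + PD arrays read 9.49, 9.99, 9.69 and 9.68, and the HGF + UO arrays 9.72, 9.52 and 9.84. The inhibitor arrays lay between the other groups, below every Control array and above every HGF array. ERBB2 was lower with HGF than in Control by a difference of -1.20 ± 0.11 (2.30-fold, adjusted p = 3.21e-07 in limma). It was higher than with HGF alone by 0.63 ± 0.11 with PD (adjusted p = 0.000212) and by 0.60 ± 0.12 with UO (adjusted p = 0.000615). Relative to Control, ERBB2 remained at -0.57 ± 0.11 with PD (adjusted p = 0.00105) and at -0.60 ± 0.12 with UO (adjusted p = 0.00228). In order, the group means were 10.29 ± 0.17 in Control, 9.71 ± 0.21 in HGF + PD, 9.69 ± 0.16 in HGF + UO and 9.09 ± 0.12 in HGF (SD), with only the inhibitor groups within each other's spread.

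ERBB3, the neuregulin receptor, followed the same order on its probe set CfaAffx.1118.1.S1_at. The Control arrays read 12.08, 12.08, 12.24 and 11.86, and the HGF arrays 10.53, 10.85, 11.07 and 10.86. With PD the arrays read 11.13, 11.75, 11.58 and 11.39, and with UO 11.36, 11.11 and 11.48. No array of either inhibitor group reached the Control range or fell into the HGF range. The difference between HGF and Control was -1.24 ± 0.14 (2.36-fold, adjusted p = 2.3e-06 in limma). Against HGF alone, ERBB3 was higher by 0.64 ± 0.14 with PD (adjusted p = 0.00113) and by 0.49 ± 0.15 with UO (adjusted p = 0.0121). The call with UO rested in part on HGF + UO array 3, without which the difference was 0.41 and the adjusted p 0.0626. Against Control, ERBB3 differed by -0.60 ± 0.14 with PD (adjusted p = 0.00361) and by -0.75 ± 0.15 with UO (adjusted p = 0.00216).

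The summed level of kidney epithelium markers was also below Control in the groups in which ERBB2 and ERBB3 were below it. Under the inhibitors that sum overlapped its HGF range, whereas ERBB2 and ERBB3 lay above theirs on every inhibitor array. Of 10 such markers 9 were measured, and with HGF 5 fell and 1 rose, against 27.7% and 28.0% of all genes. Against Control, 7 were lower and 0 higher with either inhibitor. Of all genes, 13.5% were lower there with PD and 10.3% with UO. Against HGF alone 4 were higher and 3 lower with either inhibitor (29.9% and 25.8% of all genes with PD, 26.2% and 26.3% with UO). The cadherin of kidney tubules, CDH16, was 7.98-fold lower with HGF (a log2 difference of -2.10 on another probe set and 0.50 on the third). The kidney transcription factor PAX8 changed by -1.57 ± 0.11 and the tight junction protein OCLN by -0.78 ± 0.06. CDH1, the E-cadherin gene and the 1 marker that rose, changed by 0.60. It was singled out after its value was seen. The summed intensity of the 9 markers was 112047 to 121315 on Control arrays, 80703 to 97307 with HGF, 80204 to 100471 with PD and 86107 to 94656 with UO. The part of this shift in the ERBB2 and ERBB3 results was not tested, and in bulk RNA such as this, fewer cells of a type and less RNA per cell cannot be told apart.

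EREG, the EGFR and ERBB4 ligand epiregulin, had the widest difference of the 6 genes (CfaAffx.5548.1.S1_at). The Control arrays read 4.10, 4.12, 4.08 and 4.11 in log2 intensity, just above the filter level. On the HGF arrays EREG read 8.74, 8.23, 8.63 and 8.75. The HGF + PD arrays read 4.02, 4.08, 4.23 and 4.03, and the HGF + UO arrays 4.06, 4.13 and 4.01. The 4 HGF arrays stood far above all 11 others, which lay together between 4.01 and 4.23. The difference between HGF and Control was 4.48 ± 0.09 (22.4-fold, adjusted p = 7.84e-14 in limma). The differences from HGF alone were -4.50 ± 0.09 with PD (adjusted p = 7.9e-14) and -4.52 ± 0.10 with UO (adjusted p = 2.06e-13). Control, HGF + PD and HGF + UO did not differ beyond their spread (4.10 ± 0.02, 4.09 ± 0.09 and 4.07 ± 0.06, SD).

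HBEGF, a heparin-binding ligand of EGFR and ERBB4, showed the same pattern at a smaller size (CfaAffx.9565.1.S1_at). Control arrays read 4.26, 4.25, 4.46 and 4.24, and HGF arrays 6.21, 6.25, 7.08 and 6.72. With PD the arrays read 4.17, 4.23, 4.23 and 4.22, and with UO 3.80, 4.33 and 4.22. Every HGF array was above every other array, and the lowest reading was a UO array below the filter level. HBEGF was 2.26 ± 0.16 higher with HGF than in Control (4.80-fold, adjusted p = 2.29e-08 in limma). It changed by -2.35 ± 0.16 with PD (adjusted p = 1.51e-08) and by -2.45 ± 0.18 with UO (adjusted p = 2.77e-08) against HGF alone. The neighbouring means of Control, HGF + PD and HGF + UO (4.30 ± 0.10, 4.21 ± 0.03 and 4.12 ± 0.28, SD) did not differ beyond their spread in the test.

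EREG and HBEGF sat near the filter level outside the HGF group, and the method behind the deposited values pulls dim probe sets towards a floor. The sizes of their changes therefore depend on how low values are treated. With 16 added to each intensity before the log2 was taken, the HGF difference was 3.59 for EREG and 1.64 for HBEGF, and both still passed the test in limma (adjusted p = 2.1e-13 and 4.62e-08).

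TGFA, the EGFR ligand transforming growth factor alpha, was measured well above the filter level and did not pass the test in any comparison. On its brightest probe set (CfaAffx.5980.1.S1_at), Control arrays read 8.05, 8.58, 8.50 and 8.62, and HGF arrays 8.54, 8.48, 8.42 and 8.52. The HGF + PD arrays read 8.23, 8.42, 8.44 and 8.10, and the HGF + UO arrays 8.42, 8.49 and 8.54. The groups overlapped, and the first Control array was the lowest of all. The HGF difference was 0.05 ± 0.11, with a 95% interval of -0.19 to 0.29 (adjusted p = 0.733 in limma). The second TGFA set (Cfa.133.1.A1_at) gave -0.06 ± 0.11, with an interval of -0.30 to 0.18 (adjusted p = 0.689), and its arrays lay between 7.12 and 7.74. The third (Cfa.133.1.S1_s_at) lay between 1.96 and 2.01 on all 15 arrays, below the filter. Without the first Control array, the brightest set was called lower with PD, both against HGF (-0.19, adjusted p = 0.042) and against Control (-0.27, adjusted p = 0.0207).

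AREG, the ligand amphiregulin, read 2.83 to 2.94 in log2 intensity over all 15 arrays (CfaAffx.5553.1.S1_at). BTC, the ligand betacellulin, read 2.77 to 3.01 (CfaAffx.14229.1.S1_at). Their group means were within 0.1 of each other, at 2.86 to 2.91 for AREG and 2.83 to 2.89 for BTC. Both had 1 probe set, which was not tested, and a change in their RNA was not detectable with these probe sets.

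**Figure D3:**
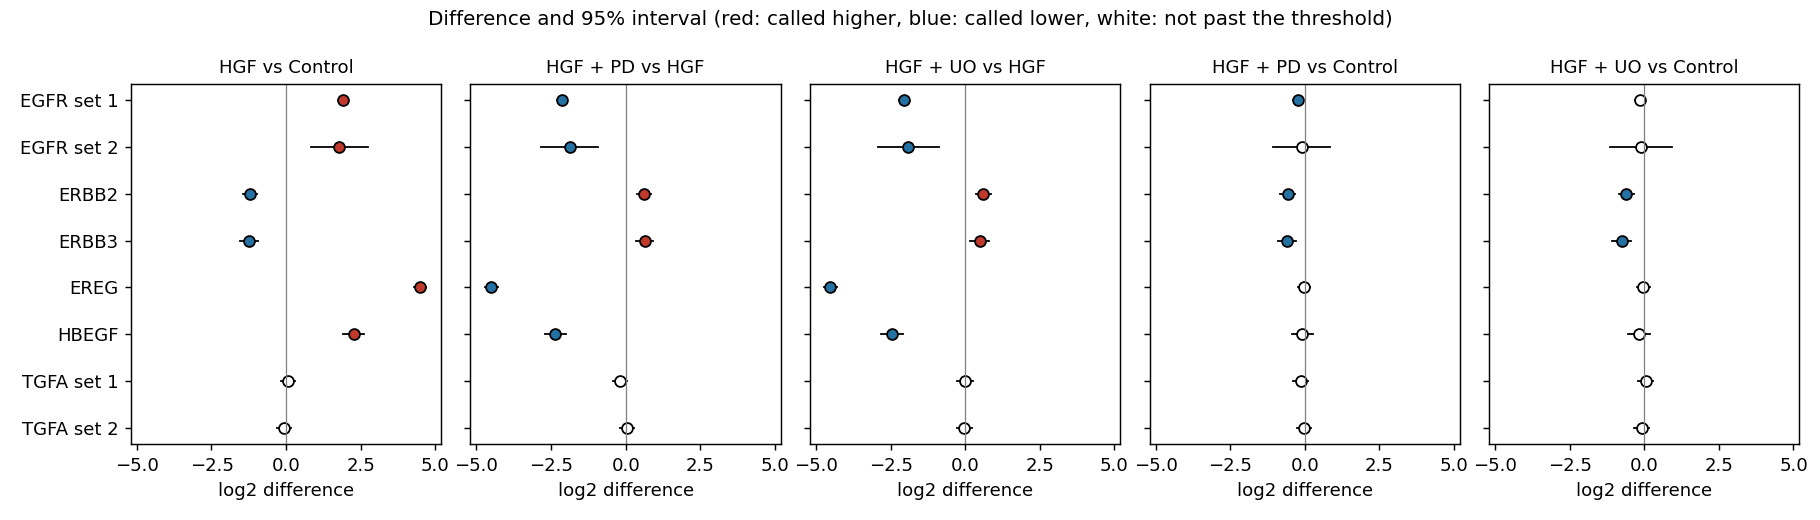
Log2 difference between group means (horizontal axis) with its 95% interval as a line, for the 8 probe sets past the filter (vertical axis) in 5 comparisons, with called differences filled in red (higher) or blue (lower) and the others white. EGFR, EREG and HBEGF are red in the first panel and blue in the next 2, ERBB2 and ERBB3 are the reverse and blue again in the last 2, and TGFA is white throughout.

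Among the 6 genes, 2 were higher (ERBB2 and ERBB3) and 3 lower (EGFR, EREG and HBEGF) with PD than with HGF alone, and the same held for UO. Their median difference was -1.16 with PD and -1.03 with UO. Over all genes, 29.9% were called higher and 25.8% lower with PD against HGF, and 26.2% and 26.3% with UO, with medians of -0.02 and -0.00. The balance depended on scaling: of all probe sets called with PD against HGF, 54.7% were higher, and 44.8% after median centring. For UO against HGF these shares were 51.9% and 46.4%, and for HGF against Control 47.4% and 52.8%. The comparisons of PD and UO with HGF share their HGF arrays with each other and with HGF against Control. The opposite directions are therefore not independent results. In the comparisons with Control, the differences themselves do not use the HGF arrays. Their p-values still do, through the spread that all arrays share in the fit, and both comparisons use the same Control arrays. There 0 genes were higher and 3 lower with PD (EGFR, ERBB2 and ERBB3), against 21.8% and 13.5% of all genes. With UO, 0 were higher and 2 lower (ERBB2 and ERBB3), against 13.8% and 10.3% of all genes. The medians over the 6 genes were -0.19 with PD and -0.17 with UO, and -0.01 over all genes in both. The EGFR difference between PD and Control was small (-0.23 ± 0.07, adjusted p = 0.0239 in limma). It lost its call in a fit of those groups alone (adjusted p = 0.069), without Control array 4 (0.0534), and without HGF + PD array 2 (0.0545) or 3 (0.069). With UO the EGFR difference from Control was -0.15 ± 0.08 (adjusted p = 0.213).

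Between the inhibitor groups, which were given at different doses, 0 of the 6 genes passed the test in limma, against 9.77% of all genes called in either direction. At an unadjusted p below 0.05 there were 0 of the 6, against 24.7% of all genes. The 95% intervals of UO minus PD were -0.09 to 0.25 for EGFR, -0.28 to 0.23 for ERBB2, -0.47 to 0.17 for ERBB3, -0.24 to 0.20 for EREG, -0.47 to 0.28 for HBEGF and -0.07 to 0.44 for TGFA.

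Other genes of the pathway were taken from lists of its parts. Of the remaining ligands and the receptor ERBB4, 4 of 7 genes were measured. With HGF 1 rose and 1 fell, against 28.0% and 27.7% of all genes. EGF, the ligand that names the family, fell. Its Control arrays read 12.48, 12.56, 12.47 and 12.56, its HGF arrays 9.36, 9.24, 9.89 and 9.64, its HGF + PD arrays 12.84, 12.74, 12.71 and 12.83 and its HGF + UO arrays 12.89, 12.75 and 12.79. HGF arrays were lowest without overlap, and all inhibitor arrays lay above all Control arrays. The difference was -2.99 ± 0.11 with HGF (adjusted p = 1.32e-11 in limma; -3.99 on a second probe set), 3.25 ± 0.11 for PD against HGF and 3.28 ± 0.11 for UO against HGF. EGF thus moved opposite to the EGFR ligands EREG and HBEGF in each of these comparisons. Its differences from Control, 0.26 with PD (adjusted p = 0.0725) and 0.29 with UO (adjusted p = 0.0888), missed the threshold. They passed it when only the groups compared were fitted (adjusted p = 0.00224 and 0.00371), without HGF array 2 (0.0331 and 0.0409) and without HGF array 3 (0.0132 and 0.017).

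NRG1, a neuregulin that binds ERBB3 and ERBB4, was the ligand that rose in all 3 groups given HGF. The Control arrays read 7.56, 7.23, 6.72 and 6.91, and the HGF arrays 7.80, 7.94, 7.89 and 8.03. With PD NRG1 read 9.64, 9.23, 9.04 and 9.77, and with UO 9.14, 9.08 and 8.63. The inhibitor arrays exceeded every HGF array, which in turn exceeded every Control array. The difference from Control was 0.81 ± 0.19 with HGF (adjusted p = 0.00209 in limma), 2.31 ± 0.19 with PD (adjusted p = 4.8e-07) and 1.85 ± 0.20 with UO (adjusted p = 1.61e-05). A second probe set gave 0.33, 2.45 and 1.55. EPGN and NRG2, further ligands, stayed below the filter.

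**Figure D4:**
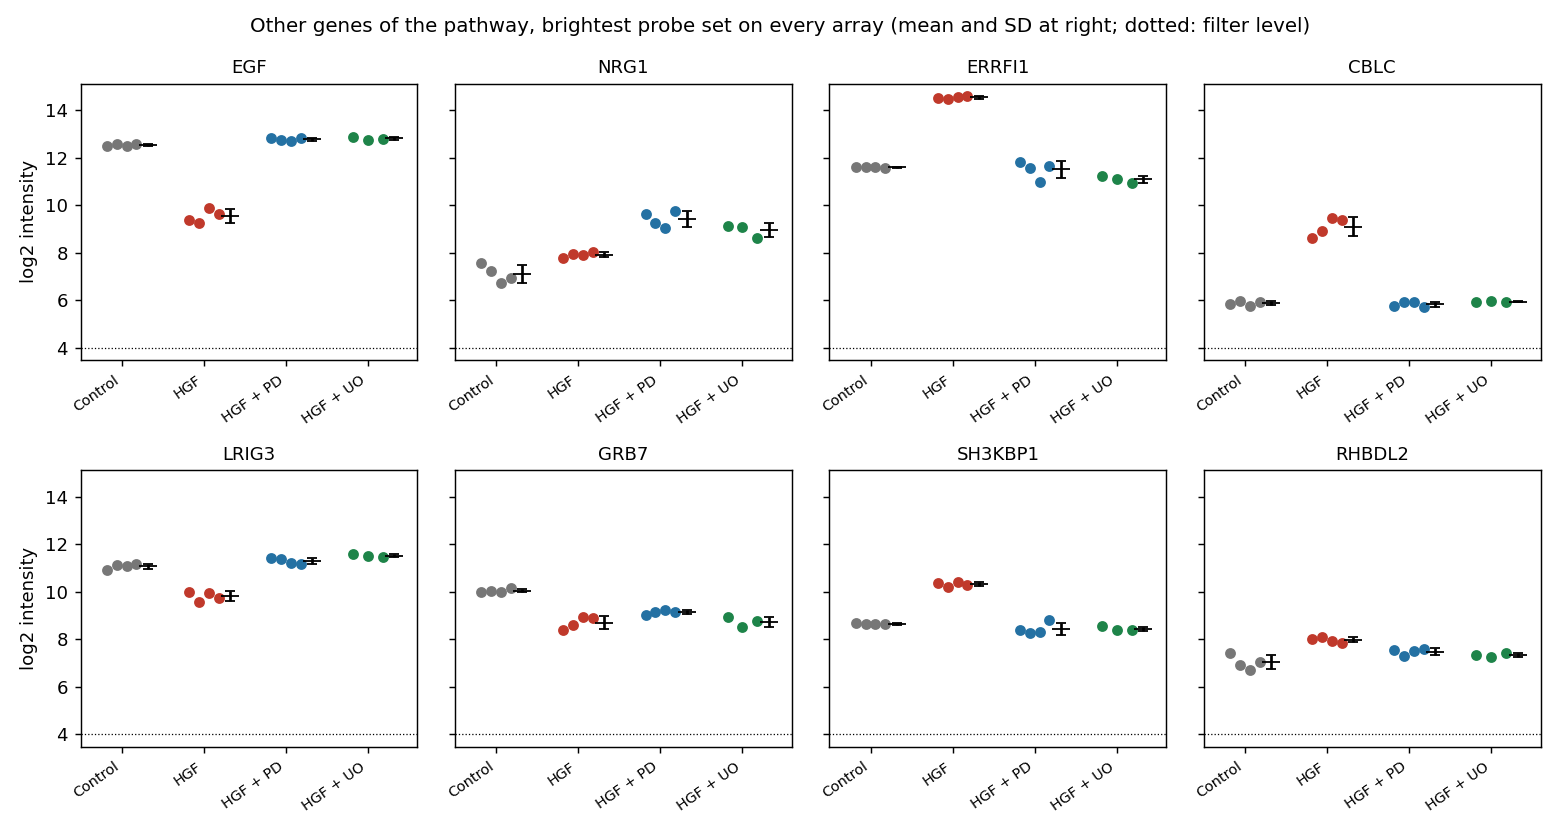
Log2 intensity (vertical axis) of the brightest probe set of 8 other pathway genes on every array of the 4 groups (horizontal axis), with the group mean and SD as a bar and the filter level of 4 as a dotted line. ERRFI1, CBLC and SH3KBP1 are highest on HGF arrays, EGF and LRIG3 are lowest there, and NRG1 is highest with the inhibitors, while GRB7 is highest in Control.

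Of the proteases that release the ligands and their iRhom partners, 5 of 8 were measured. With HGF 2 rose and 1 fell, against 28.0% and 27.7% of all genes. The rhomboid protease RHBDL2 changed by 0.95 ± 0.12, from 6.73 to 7.45 on the Control arrays to 7.86 to 8.10 on the HGF arrays. RHBDF1, which encodes an iRhom, a catalytically inactive rhomboid relative, changed by 0.56 ± 0.09 (0.06 on another probe set, which did not pass). ADAM10, a metalloprotease known to release EGF and BTC, changed by only -0.16 ± 0.04 (adjusted p = 0.00579 in limma), a call that was lost with median centring (adjusted p = 0.123). With PD against HGF 1 of the 5 was higher and 4 lower (29.9% and 25.8% of all genes). With UO 1 was higher and 3 lower (26.2% and 26.3% of all genes). The 1 higher gene was ADAM10 (0.13 in both), whose call held in 18 of 23 alternatives with PD and in 13 of 23 with UO.

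Of the negative regulators of ERBB receptors, 10 of 13 were measured. With HGF 3 rose and 4 fell, against 28.0% and 27.7% of all genes. ERRFI1, which encodes the EGFR inhibitor MIG6, read 11.61, 11.61, 11.59 and 11.56 on Control arrays and 14.52, 14.46, 14.56 and 14.58 on HGF arrays. It read 11.79, 11.58, 10.98 and 11.65 with PD and 11.22, 11.11 and 10.93 with UO. The HGF arrays were all far above the rest (2.94 ± 0.13, adjusted p = 1.2e-10 in limma), and the UO arrays all lay below Control (-0.51 ± 0.14, adjusted p = 0.0169, and 0.0827 without HGF + UO array 3). CBLC, a ubiquitin ligase of the CBL family, rose from 5.77 to 5.95 on Control arrays to 8.63 to 9.47 on HGF arrays (3.22 ± 0.14). It lay between 5.73 and 5.97 on the inhibitor arrays. LRIG3, of a family of membrane proteins that bind ERBB receptors, fell with HGF (-1.25 ± 0.09) and was higher than with HGF alone under PD (1.48 ± 0.09) and UO (1.70 ± 0.10).

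**Figure D5:**
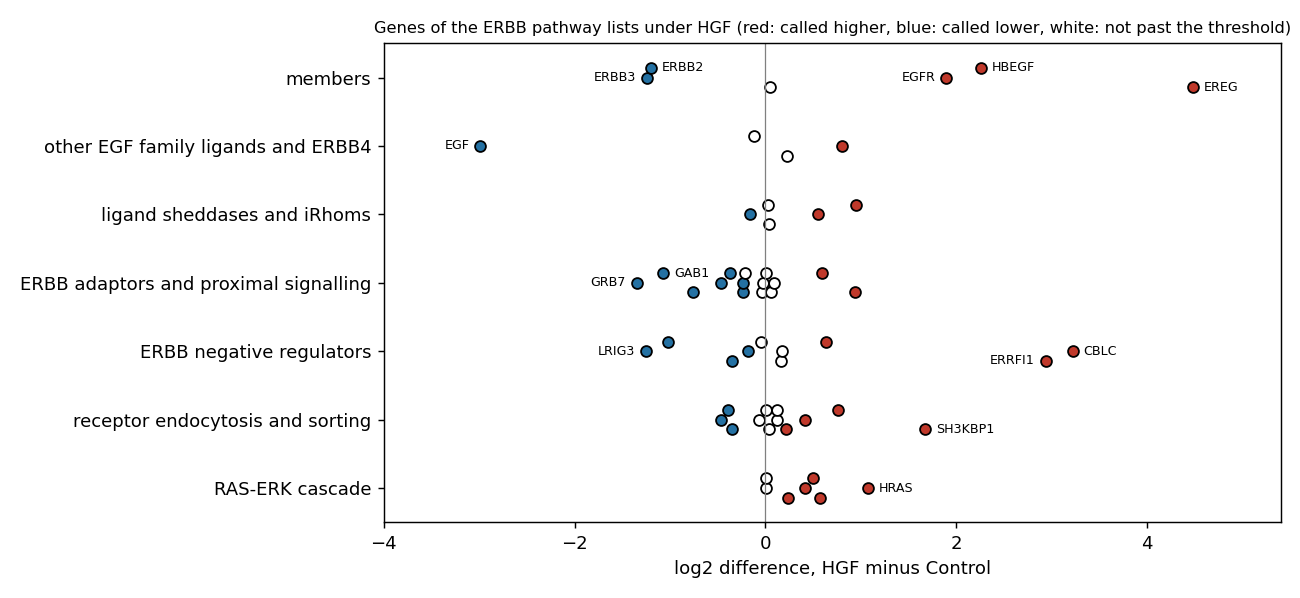
Log2 difference between HGF and Control (horizontal axis) for each measured gene of 7 lists (vertical axis), with genes called higher in red, lower in blue and the others white, and labels on the named genes beyond 1 in either direction. EREG at 4.48 and EGF at -2.99 mark the ends, the RAS-ERK list has 5 red and 0 blue genes, and the other pathway lists hold both colours.

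Of the adaptors and proximal signalling genes, 15 of 16 were measured. With HGF 2 rose and 7 fell (median -0.22), against 28.0% and 27.7% of all genes. GRB7, an adaptor that binds ERBB2 and ERBB3, fell with HGF by a difference of -1.35 ± 0.12 (adjusted p = 1.4e-07 in limma). It was 0.45 ± 0.12 above HGF with PD and 0.04 ± 0.12 with UO (adjusted p = 0.821), and it remained below Control with PD (-0.90 ± 0.12) and UO (-1.31 ± 0.12). GAB1, a docking protein of both EGFR and MET, changed by -1.07 ± 0.15 with HGF and also stood below Control with PD (-0.96 ± 0.15) and UO (-0.69 ± 0.16). PIK3CA, the catalytic subunit p110 alpha of PI3 kinase, rose by 0.94 ± 0.10 and was lower than in Control with PD (-0.53 ± 0.10) and UO (-0.90 ± 0.11). Against HGF, this list had 2 higher and 5 lower with PD (29.9% and 25.8% of all genes). With UO it had 1 higher and 4 lower (26.2% and 26.3% of all genes). GAB1 missed the threshold for UO against HGF (0.39 ± 0.16, adjusted p = 0.0565), but passed it in 8 of 23 alternatives (adjusted p from 0.027 to 0.182 over all of them). Between the inhibitors 2 were higher (SHC1 and STAT3) and 1 lower (EPS8) with UO, against 9.77% of all genes called in either direction. These 3 names were taken after their values were seen.

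In the list of receptor endocytosis and sorting, 12 of 14 genes were measured. With HGF 4 rose and 3 fell (median 0.08), against 28.0% and 27.7% of all genes. SH3KBP1, which encodes the CBL-binding adaptor CIN85, read 8.68, 8.65, 8.63 and 8.63 in Control and 10.37, 10.21, 10.43 and 10.29 with HGF. It read 8.26 to 8.81 on the inhibitor arrays, and the HGF difference was 1.68 ± 0.10 (adjusted p = 2.81e-09 in limma). STAM, a part of the complex that sorts ubiquitinated receptors, rose by 0.76 ± 0.08. RAB7A, a GTPase of late endosomes, fell on its brightest set (-0.46 ± 0.03), while its other sets did not pass. With each inhibitor against HGF, 2 genes of this list were higher and 6 lower. Over all genes these shares were 29.9% and 25.8% with PD, and 26.2% and 26.3% with UO.

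Of the RAS-ERK cascade below the receptors, 7 of 11 genes were measured. With HGF 5 rose and 0 fell (median 0.42), against 28.0% and 27.7% of all genes. Relative to HGF, 0 were higher and 5 lower with PD (median -0.48) and with UO (median -0.53). Over all genes these shares were 29.9% and 25.8% with PD, and 26.2% and 26.3% with UO. HRAS rose with HGF by 1.08 ± 0.19 (2.13 on another set), the kinase genes BRAF by 0.57 ± 0.16 and ARAF by 0.50 ± 0.07. The BRAF arrays of HGF and Control overlapped.

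The genes most like each member across the 15 arrays were found by Pearson's r over the brightest probe sets, as a description. All arrays share the 4 groups, so that r mostly reflects the differences between group means. For EGFR they were LAMA3 (r = 0.997), RGS17 (0.995) and LURAP1L (0.995), and for EREG TFPI2 (0.999), LOX (0.999) and BAIAP2L1 (0.998). HBEGF was most like UNC5B (0.993), TBC1D2 (0.992) and S1PR2 (0.991). ERBB2 was most like PPP1R14C (0.988), PLBD2 (0.983) and ZER1 (0.982). ERBB3 was most like PPP1R14C (0.974), PPM1M (0.965) and ERBB2 itself (0.964). The closest genes to TGFA were SPACA4 (0.8291), FAM219A (0.828) and JADE3 (0.818), at a much lower likeness than for the other 5.

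Across the series, the median intensity per array was 40.4 to 42.6, and 56.9% to 57.8% of probe sets on an array were at log2 4 or more. No arrays were identical. The log2 ratio of the array maker's 3′ beta-actin set to its 5′ sets, a sign of RNA length and labelling, was lower on HGF arrays (3.88 to 4.04 and 1.38 to 1.56) than on Control (4.35 to 4.61 and 2.17 to 2.29), HGF + PD (4.41 to 4.63 and 2.08 to 2.23) and HGF + UO arrays (4.63 to 4.69 and 2.11 to 2.19). It moved with HGF in the same groups as EGFR, EREG and HBEGF, and its part in those results was not tested. Of the markers of other cell types, 4 of 8 fibroblast, 4 of 7 endothelial and 3 of 7 leukocyte genes passed the filter. Of all genes, 10287 of 15115 passed it. COL1A1, VWF, CD79A and ITGAM lay below 4 on every array, while PDGFRB read 5.34 to 5.90 and CD3E 5.77 to 6.10. The summed intensity was 266 to 317 for the fibroblast list and 450 to 552 for the endothelial list over all arrays. With HGF 0 of the 4 fibroblast markers measured rose and 1 fell (PDGFRB, -0.26 ± 0.07, a call lost with median centring). Of the 4 endothelial markers measured, 0 passed the test. Over all genes 28.0% were called higher and 27.7% lower with HGF. The leukocyte sum moved with HGF, at 142 to 385 against 125 to 130 in Control, 112 to 118 with PD and 116 to 129 with UO. It did so through CD68, a lysosomal protein (6.99, 4.91, 5.11 and 8.12 on HGF arrays and at most 3.73 elsewhere). CD68 passed the filter through the HGF arrays alone, so its place among the leukocyte markers that passed rests on that group. CD3E fell slightly (-0.15 ± 0.05, a call lost with median centring, at an adjusted p of 0.211, and without Control array 2 or HGF array 3). PTPRC, the defining leukocyte gene, did not pass the filter (highest 4.21).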

How the data were processed

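Biotin-labelled RNA from 15 samples was hybridised to 15 Affymetrix canine arrays. The deposited values are linear intensities, 1 per probe set and array, and the submitters' processing notes name GCRMA as the tool with which the authors made them. GCRMA estimates background from probe sequence, puts arrays on a common scale and merges the probes of each set. No version of it or of its annotation was found in the labels. Arrays have no read depth, so precision here is limited by how many there are.

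Each deposited intensity was turned into log2 without rescaling. Of 43035 probe sets, 111 controls were left out. Testing took the 24904 (58.0%) with log2 of at least 4 on at least 3 arrays. Symbols came from the platform annotation (29254 probe sets with 1 symbol, 439 with several, not named, and 13231 unlisted), and a gene was represented by its brightest probe set, by the mean of all arrays.

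The test was limma 3.58.1 (R 4.3.3), with lmFit giving each group 1 mean over all 15 arrays, eBayes with a variance trend, Benjamini-Hochberg adjustment over all probe sets tested and a threshold of 0.05. Intervals of 95% come from the same fit. The procedure was run on simulated data with independent noise and far fewer changed probe sets than were called here. That run therefore does not vouch for the p-values given. The alternatives were no filter, a filter at log2 6 on 3 arrays, quantile normalisation, median centring, a pseudocount of 16, eBayes without a trend, only the groups compared, the replicate number as a block, each array left out in turn, and the probe set of lowest mean. The genes and lists were chosen with earlier results of these data known. All probe sets of the 8 genes are named, and values are described for up to 3 genes per list, those with the largest HGF difference among those called. Genes below the filter are named besides, as are CDH1, SHC1, STAT3 and EPS8, which were picked after their values were seen. The 3 genes most like each of the 6 are named by Pearson's r.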

Additional observations from a re-analysis of the deposited data

Results flagged for a closer look

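In 6 of 108 groups of 4 arrays examined, 1 array stood apart from the other 3 by more than Dixon's limit, measured as the gap to the nearest array over the range of the group. For independent normal values, chance gives about 1 such group in 20. The groups here share arrays and some hold tied values, so 6 of 108 cannot be judged against that rate. The gap was 0.903 for EGFR (Cfa.8309.1.A1_at) in Control, where array 4 read 10.54 and the others 10.19 to 10.23. For HBEGF in Control it was 0.929, with array 3 at 4.46 and the others at 4.24 to 4.26. Below the filter it was 0.875 for AREG in HGF + PD (array 4, 2.83) and 0.886 for BTC in Control (array 1, 2.98). The leukocyte marker CD3E had a gap of 0.98 in HGF (array 3, 5.77) and of 0.883 in HGF + PD (array 4, 5.87).

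Of 83 probe sets of these genes and lists examined, 6 differed between the inhibitor groups in limma, against 9.22% of all probe sets. The brightest sets of SHC1 (0.595), STAT3 (0.323), EPS8 (-0.353) and RAB7A (0.14) are given as UO minus PD. The second NRG1 set (CfaAffx.10523.1.S1_s_at) was at 9.29, 9.07, 9.13 and 9.10 with PD and at 8.37, 8.13 and 8.24 with UO, a difference of -0.90 for UO minus PD (adjusted p = 4.31e-05). The brighter NRG1 set gave -0.47 (adjusted p = 0.177). The second GRB7 set (CfaAffx.25032.1.S1_s_at) gave -0.48 (adjusted p = 0.0213) and the brighter one -0.41 (adjusted p = 0.0574). The brighter set passed with the filter at log2 6 (0.0444), quantile normalisation (0.0411), median centring (0.0429), and without HGF array 1 (0.0276) or 3 (0.0468). The call of the second GRB7 set was lost without HGF + PD array 4 (adjusted p = 0.057) and without HGF + UO array 1 (0.0565) or 2 (0.0987). The doses of the inhibitors differed.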

How the results depend on the processing

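Every called difference of the 6 genes kept its direction under all alternatives run, and 1062 of 1098 recomputed values for their probe sets kept direction and side of the threshold. Where the array left out was in neither group compared, the difference could not change, so that share was partly fixed in advance. Between the inhibitor groups, 2295 probe sets were called. That number was 997 with only those groups fitted, and 1208 to 2924 with 1 array left out (1208 without HGF + PD array 4, and 1484, 1254 and 1475 without HGF + UO array 1, 2 and 3). Of those calls 27.7% were higher with UO, against 41.4% after quantile normalisation and 39.0% after median centring. Values near 0 that missed the threshold changed sign. After quantile normalisation these were EREG for PD against Control (0.027), the second TGFA set for PD against HGF (-0.036) and ERBB2 for UO against PD (0.034). After median centring they were the same TGFA value (-0.038), ERBB2 (0.0089), EREG (0.0099) and the second EGFR set (0.012) for UO against PD, and GRB7 for UO against HGF (-0.0082). With 1 array left out, the brightest TGFA set ranged from -0.076 to 0.11 for HGF against Control, -0.083 to 0.10 for UO against Control and -0.033 to 0.026 for UO against HGF. The second TGFA set ranged from -0.17 to 0.040, -0.19 to 0.014 and -0.052 to 0.0054 in the same comparisons, from -0.12 to 0.083 for PD against Control and from -0.014 to 0.082 for PD against HGF. EREG ranged from -0.059 to 0.0084 for PD against Control. For UO against PD the ranges were -0.098 to 0.070 for ERBB2, -0.080 to 0.062 for the second EGFR set, -0.054 to 0.023 for EREG and -0.20 to 0.063 for HBEGF. GRB7 ranged from -0.066 to 0.15 (second set, -0.14 to 0.020) for UO against HGF, GAB1 from -0.0020 to 0.21 for PD against HGF, and ERRFI1 from -0.19 to 0.080 for PD against Control. The cause of these changes was not tested.

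The labels number the replicates in each group, without saying that a number marks a shared culture or day. Deviations of same-numbered arrays correlated at -0.247 to 0.412 over 21 pairs (median 0.054), 8 of them above 0.1. The 63 other pairs had a median of 0.0098, and 5 of 15 arrays correlated best with their own number. The labels do not state a pairing, so the numbers were not taken as pairs, and the block was run as an alternative. With the replicate number as a block, 13924 probe sets were called for HGF against Control (13839 without it). In both fits 6 of the 8 probe sets of these genes were called, against 55.6% of all probe sets without the block. Those 6 include the second EGFR set, which passed the filter mainly through the HGF arrays. The block changed no call of the 8 in any comparison, and the second EGFR set changed sign for UO against PD (0.090).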

Other observations

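The genes lying next to the 6 measured ones on the dog chromosomes were looked up in RefSeq (assembly UU_Cfam_GSD_1.0), taking up to 2 protein-coding genes on each side, a set chosen after the values of the 6 were seen. Of 23 neighbours 14 were measured, and with HGF 3 were higher and 4 lower in limma, against 28.0% and 27.7% of all genes. EREG lies between EPGN and AREG, further ligands of EGFR. EPGN read 2.30 to 2.40 and AREG 2.83 to 2.94 on all arrays, below the filter, while EREG rose by 4.48. Beside ERBB2 lie MIEN1, which did not pass the test with HGF (-0.07), and then GRB7 (-1.35) on 1 side, and PGAP3 on the other. PGAP3 was called lower with HGF, but its mean there (3.32) lay below the filter level, against 4.38 in Control. Its means with PD (4.05) and UO (4.13) also lay above that level. It thus passed the filter mainly through the groups where it was high, so its call gives no support. The size of that change rests on a dim signal. Beside ERBB3 lie RPS26, a ribosomal protein gene (-0.10), and PA2G4, which encodes the ERBB3-binding protein EBP1 (0.48).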
